A study of Mus musculus with 4 samples.

Results

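The effect of *Napepld* deletion under a high-fat diet was read from 2 of the 4 microarrays of the series, one of fat from knocked-out mice (cKO-HFD) and one of fat from their wild-type counterparts (WT-HFD). The log2 ratio on HFD is the log2 level of a gene on the cKO-HFD array minus that on the WT-HFD array, and it was taken for all 19938 genes with a name on the platform. The other 2 arrays (WT-CT and cKO-CT) gave the same genotype ratio on a control diet (CT) and are set beside it. Where 4 values follow each other, they are for WT then cKO on CT, then WT then cKO on HFD. All 4 arrays held RNA of subcutaneous adipose tissue (SAT) of C57Bl6 mice aged 16 weeks. The WT mice carried the NAPE PLD lox/lox allele without Cre, so the controls were also floxed, and the cKO mice carried AP2 Cre NAPE PLD lox/lox. The high-fat chow was D12492 and the control chow AIN93M, the mice were male littermates per the study's methods, and RNA of 4 to 5 mice was pooled for each array. The aP2 (*Fabp4*) promoter that drives Cre is active in adipocytes and has been found active in some other cells, macrophages among them, while other cells of the fat pad keep the gene. With 1 pooled array per group there is no test, no error and no view of the spread between mice, so the ratios compare these RNA pools.

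NAPE-PLD is a membrane-bound phospholipase D that releases N-acylethanolamines (NAEs), such as anandamide, palmitoylethanolamide and oleoylethanolamide, from their phospholipid precursors. NAEs act on cannabinoid receptors, on the nuclear receptor PPARα and on other targets, and are broken down by the hydrolases FAAH and NAAA. A subcutaneous fat pad holds adipocytes beside stromal progenitors, endothelium and immune cells, and lies close to thin sheets of skeletal muscle and to skin. In a bulk sample, fewer cells of a type and less RNA per cell cannot be told apart.

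The adipose label was borne out by *Adipoq*, *Plin1*, *Cidec*, *Fabp4*, *Pparg* and *Lipe*, since 6 of 6 adipocyte markers lay above background on each array. Background was taken as the 95th percentile of 1027 odorant receptor (*Olfr*) genes, which was a log2 level of 5.39 (WT) and 5.28 (cKO) on CT and 5.42 (WT) and 5.50 (cKO) on HFD. Skeletal muscle markers (*Acta1*, *Ckm*, *Myh4*, *Myh1*, *Ttn*, *Atp2a1*) were also 6 of 6 above background on every array. The median level over all genes was 5.83 on both HFD arrays. *Napepld* itself was at 8.31 (WT) and 7.78 (cKO) on CT and 8.01 (WT) and 7.94 (cKO) on HFD. Its 1 probe set thus differed by only -0.06 between the HFD arrays and by -0.53 between the CT arrays. Whether this probe set falls in the floxed stretch was not known here, so its level does not check the labels.

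The sequences just upstream of genes on both sides of the contrast are shown because muscle genes and lipogenic genes carry recognisable short motifs there. Each is the 250 bases before the RefSeq transcription start in GRCm38.p6, read in the direction of the gene. The first 3 belong to skeletal muscle genes that were far lower on cKO-HFD. They are *Myh4* (chr11:67237562-67237811, plus strand), *Mylpf* (chr7:127211358-127211607, plus strand) and *Ckm* (chr7:19410844-19411093, plus strand). Capitals mark the E-box CAGCTG, which reads the same on both strands and is a motif of the MyoD family, and in *Myh4* also a CArG box, the motif of serum response factor.
Myh4: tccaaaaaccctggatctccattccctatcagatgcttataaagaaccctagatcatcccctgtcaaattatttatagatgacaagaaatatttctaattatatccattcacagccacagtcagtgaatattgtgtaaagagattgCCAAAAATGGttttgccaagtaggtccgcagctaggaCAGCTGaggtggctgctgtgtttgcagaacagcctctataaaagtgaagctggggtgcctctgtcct
Mylpf: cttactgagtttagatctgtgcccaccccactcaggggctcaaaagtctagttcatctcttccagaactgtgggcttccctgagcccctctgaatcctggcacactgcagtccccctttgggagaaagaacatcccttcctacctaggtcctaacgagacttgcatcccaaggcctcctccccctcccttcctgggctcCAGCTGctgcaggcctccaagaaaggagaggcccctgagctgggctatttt
Ckm: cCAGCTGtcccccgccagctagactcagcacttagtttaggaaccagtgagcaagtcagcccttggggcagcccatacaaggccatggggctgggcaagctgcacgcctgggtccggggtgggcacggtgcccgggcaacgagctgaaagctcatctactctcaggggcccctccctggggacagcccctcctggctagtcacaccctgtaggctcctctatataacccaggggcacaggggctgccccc
The last 2 belong to lipogenic genes that were higher on cKO-HFD, *Fasn* (chr11:120824548-120824797, minus strand) and *Insig1* (chr5:28071162-28071411, plus strand). Capitals mark the CCAAT box, read as CCAAT or, on the other strand, as ATTGG, the motif of NF-Y, which works beside SREBP factors at many lipogenic promoters. In *Fasn* a forward and a reverse copy overlap.
Fasn: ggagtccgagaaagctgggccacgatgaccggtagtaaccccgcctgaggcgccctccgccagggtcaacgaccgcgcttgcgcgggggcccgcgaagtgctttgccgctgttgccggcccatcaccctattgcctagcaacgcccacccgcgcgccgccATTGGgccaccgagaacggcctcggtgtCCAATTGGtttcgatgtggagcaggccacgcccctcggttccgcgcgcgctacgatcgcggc
Insig1: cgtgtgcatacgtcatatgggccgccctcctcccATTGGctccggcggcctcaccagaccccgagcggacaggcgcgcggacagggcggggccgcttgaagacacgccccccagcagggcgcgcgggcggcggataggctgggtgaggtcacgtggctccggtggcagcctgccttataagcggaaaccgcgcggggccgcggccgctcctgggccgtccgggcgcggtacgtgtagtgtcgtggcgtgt
The E-box began at base -67 before the start of *Myh4*, at -51 in *Mylpf* and at -249 in *Ckm*. It was found in 13.0% of all 32851 RefSeq windows of this length. Among the skeletal muscle genes described below, 139 of 187 had a window, and 32.6% of their 172 windows held it. It was in 43 of 113 windows (38.1%) of the muscle genes that were lower on cKO-HFD and in 13 of 59 windows of the others. The MEF2 site, bound by another muscle factor family, was in 8.14% of muscle windows and 0.508% of all, and the CArG box in 6.40% and 1.47%. The CCAAT box was in 33.8% of all windows, in 51.9% of 27 windows of fatty acid synthesis genes and in 70.4% of 27 windows of cholesterol genes. A match is a description of these letters and not evidence that a factor binds.

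A gene was called higher or lower where the HFD arrays differed by at least 1.5-fold, a log2 ratio of 0.58 in size. By this rule 207 genes (1.04% of 19938) were higher on cKO-HFD and 420 (2.11%) were lower. The counts of each list below are to be read beside these shares over all genes. The larger the difference, the more one-sided the contrast became. At 2-fold, 18 genes (0.0903%) were higher and 181 (0.908%) lower, and at 4-fold 1 was higher, *Apoa4*, and 73 were lower. A list of skeletal muscle genes made up 119 of the 420 lower genes, 96 of the 181 lower by 2-fold and 63 of the 73 lower by 4-fold, but none of the higher ones. Outside that list, 207 of 19751 genes (1.05%) were higher and 301 (1.52%) lower, and among the 5546 of them that reached a log2 level of 7 on a HFD array 60 (1.08%) were higher and 146 (2.63%) lower. Many of the higher genes were dim, with 92 of 207 below background on both HFD arrays, against 47 of the 420 lower genes. Where only 1 HFD level lay below background, the other level over that array's background bounds the fold from below, and with such genes at their bound and genes below background on both arrays at no difference, 90 genes were higher and 324 lower. Among the *Olfr* genes themselves 11 were higher (1.07%) and 2 lower (0.195%), a skew to be kept in view for dim genes with a higher level on cKO-HFD.

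**Figure D1:**
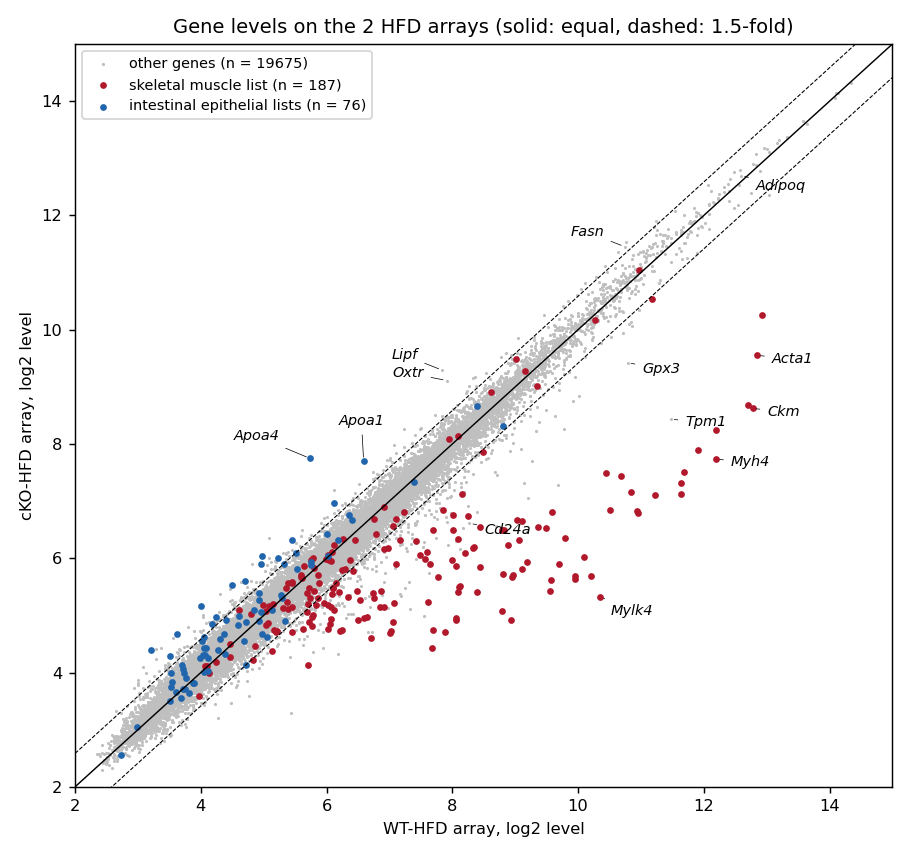
Log2 level of each gene on the WT-HFD array (horizontal) and the cKO-HFD array (vertical), 1 point per gene, with skeletal muscle genes in red and intestinal epithelial genes in blue. Most genes lie between the dashed 1.5-fold lines, muscle genes such as *Ckm* (12.78 and 8.62) spread far below them, and *Apoa4* (5.73 and 7.75) lies above.

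Skeletal muscle contracts through sarcomeres, in which myosin thick filaments pull on actin thin filaments when calcium leaves the sarcoplasmic reticulum, and fibres differ in their myosin heavy chains, from fast glycolytic to slow oxidative. Of 187 measured genes listed for this tissue, grouped by role, 119 were lower on cKO-HFD and 0 higher. Their median log2 level was 6.21 (WT) and 6.04 (cKO) on CT and 6.91 (WT) and 5.68 (cKO) on HFD, so that WT-HFD stood above both CT arrays and cKO-HFD below both. Above background were 146, 140, 161 and 104 of the 187 genes on those arrays, in the same order. The median log2 ratio was -1.02 between the HFD arrays and -0.10 between the CT arrays, against 0.03 and -0.00 over all genes. With dim genes at their bound, 102 muscle genes were lower and the median on HFD was -0.72. On CT 3 muscle genes were higher and 13 lower, where 1.64% of all genes were higher and 1.52% lower.

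Genes of the fast fibre sarcomere differed most, with 13 of 13 lower and a median log2 ratio of -3.95. *Myh4*, the myosin heavy chain of the fastest, IIb, fibres, was at 10.40 (WT) and 10.64 (cKO) on CT and 12.20 (WT) and 7.73 (cKO) on HFD. WT-HFD held the highest level and cKO-HFD the lowest, and the CT arrays lay between and close together. *Myh1*, the heavy chain of IIx fibres, was at 7.72, 6.62, 8.20 and 6.09 in the same order. *Myh2*, the heavy chain of IIa fibres, was at 6.42, 5.74, 6.76 and 5.31, the last of these below background, so that WT-HFD was at least 2.39-fold higher. The log2 ratio of *Myh4* was -4.46 on HFD and 0.24 on CT, and that of *Myh1* -2.11 and -1.10. *Mylpf*, the regulatory light chain of fast fibres, had a log2 ratio of -3.94, the fast troponin I gene *Tnni2* -3.68 and the fast troponin T gene *Tnnt3* -3.95. *Actn3*, the Z-line actinin of fast fibres, was at -4.31 and *Tnnc2*, the fast calcium sensor of the thin filament, at -4.17. *Myoz1* of the Z-line was at -4.26 and the fast myosin-binding protein gene *Mybpc2* at -4.52. The lowest gene of the contrast was *Mylk4*, a kinase of the myosin light chain kinase family, with levels of 7.79, 8.42, 10.35 and 5.32, the last below background, so that WT-HFD was at least 28.9-fold higher.

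Slow fibre genes did not share this size. Of 9 genes 3 were lower, 2 of them with dim genes at their bound, with a median of -0.31 on HFD and -0.49 on CT, and on CT 4 were lower. *Myh7*, the slow heavy chain, was at 6.43 (WT) and 5.25 (cKO) on CT and 6.42 (WT) and 5.78 (cKO) on HFD, which put both WT arrays at nearly one level and both cKO arrays below it. Its level on cKO-CT lay below background, so that WT-CT was at least 2.22-fold higher. *Mybpc1*, the slow form of the thick filament protein myosin-binding protein C, was at 7.06, 5.39, 7.64 and 5.89 and followed the genotype on both diets, with ratios of -1.74 on HFD and -1.67 on CT. *Myoz2*, a Z-line gene that lay below background on every array, had a log2 ratio of -0.60. A pair of genes from the energy list resembled the slow set. *Mb*, the oxygen store myoglobin of oxidative fibres, was at 8.04, 6.82, 8.43 and 6.54, lower on the cKO array of each diet. The slow light chain gene *Myl2* (-0.39) and *Mss51* (-0.25), a gene of muscle mitochondria, did not reach 1.5-fold on HFD and had ratios of -1.41 and -1.70 on CT. Both lay below background on cKO-CT, so that WT-CT was at least 1.14-fold higher for *Myl2* and 2.31-fold for *Mss51*. *Myl2* also lay below background on both HFD arrays.

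Among 82 sarcomere genes shared by fibre types, 58 were lower, with a median of -1.17, or 46 with a median of -0.82 with dim genes at their bound. *Acta1*, skeletal alpha-actin, was at 11.17 (WT) and 11.50 (cKO) on CT and 12.85 (WT) and 9.55 (cKO) on HFD. *Ttn*, the giant spring titin, was at 9.28, 9.07, 10.93 and 6.83, and *Neb*, the thin filament ruler nebulin, at 9.48, 9.39, 11.23 and 7.11. In these genes too the 2 CT arrays differed little and the HFD arrays lay on either side of them. *Tmod4*, which caps thin filaments, had a log2 ratio of -4.33. Not every member took part. *Myl4*, an embryonic and atrial light chain, had a log2 ratio of 0.47, the integrin gene *Itga7* 0.29 and the chaperone gene *Cryab* 0.07.

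Calcium handling and energy supply followed the sarcomere. Of 23 genes of calcium release and reuptake, 17 were lower, with a median of -1.20. *Atp2a1*, the calcium pump of fast fibres, was at 11.15 (WT) and 11.09 (cKO) on CT and 12.71 (WT) and 8.69 (cKO) on HFD. *Pvalb*, the calcium buffer parvalbumin, had a log2 ratio of -4.16, *Ryr1*, the calcium release channel, -4.07, and *Casq1*, the calcium store protein of fast fibres, -3.66, while cardiac and slow *Casq2* was below background throughout and at 0.04. Of 29 genes of muscle energy metabolism, 22 were lower, with a median of -2.14. *Ckm*, muscle creatine kinase, was at 11.05, 11.29, 12.78 and 8.62, and *Pygm*, which breaks down muscle glycogen, at 9.59, 9.98, 11.63 and 7.13, a 22.6-fold difference on HFD. *Ampd1*, muscle AMP deaminase, was at least 16.7-fold lower and the muscle enolase gene *Eno3* 16.0-fold lower. *Ucp3*, a mitochondrial carrier of muscle and brown fat, was lower too, with a log2 ratio of -1.03.

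Muscle genes of the membrane and of myogenesis were mostly dim, with median log2 levels on WT-HFD of 5.61 and 5.64, near background, which limits what their ratios can show. Of 15 genes of membrane excitability and the neuromuscular junction 4 were lower, and each lay below background on cKO-HFD. WT-HFD was at least 2.13-fold higher for *Scn4b*, 1.65-fold for *Ky*, 1.5-fold for *Clcn1*, the muscle chloride channel, and 1.52-fold for *Kcna7*. Of 19 myogenic and satellite cell factors 4 were lower, with a median of 0.03, and all 4 lay below background on cKO-HFD. *Myf6*, the myogenic factor of mature fibres, was at 5.77 (WT) and 5.82 (cKO) on CT and 7.07 (WT) and 5.21 (cKO) on HFD, at least 2.96-fold higher on WT-HFD. *Abra*, an actin-binding activator of serum response factor signalling, was at least 2.20-fold higher there. The bounds of the muscle growth inhibitor gene *Mstn* and of *Yipf7*, at least 1.15-fold and 1.09-fold, fell short of 1.5-fold. *Pax7*, the satellite cell factor, was at 5.82, 5.61, 5.64 and 5.86, and *Myod1* at 6.08, 5.80, 5.79 and 5.83. Both lay just above background on all arrays and did not separate the genotypes, and *Myog*, the differentiation factor myogenin, lay below background with a log2 ratio of 0.08.

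**Figure D2:**
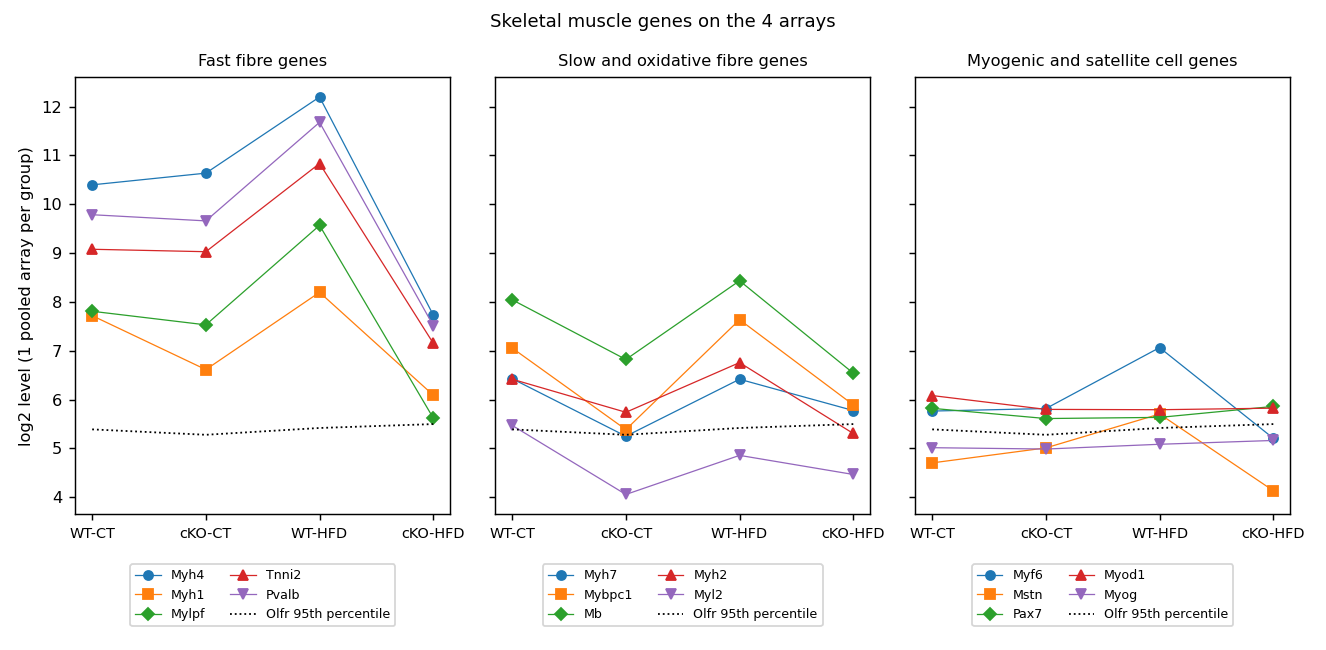
Log2 levels of skeletal muscle genes on the 4 arrays, with lines joining the values of 1 gene and the dotted line at the *Olfr* 95th percentile of each array. Fast fibre genes such as *Myh4* (12.20 on WT-HFD and 7.73 on cKO-HFD) had their highest level on WT-HFD and their lowest on cKO-HFD, slow and oxidative genes such as *Mybpc1* were lower on the cKO array of each diet, and *Pax7*, *Myod1* and *Myog* stayed near the dotted line.

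Outside the muscle list, the lowest genes that reached a log2 level of 7 included several that striated muscle also expresses, and their part in a muscle difference was not tested. *Tpm1*, a tropomyosin of striated and smooth muscle, was at 9.61 (WT) and 9.89 (cKO) on CT and 11.47 (WT) and 8.43 (cKO) on HFD, the order of the fast fibre genes. *Cap2*, an actin regulator of striated muscle, had a log2 ratio of -2.29, *Fhl3*, a LIM protein of skeletal muscle, -2.15, and *Slc25a12*, a mitochondrial aspartate carrier of muscle and brain, -1.83. The alpha-tubulin genes *Tuba4a* and *Tuba8* were at -2.40 and -2.12. *Pde4dip*, a scaffold of the Golgi and centrosome, was at -1.96, *Serinc2* at -1.77 and the uncharacterised *A930016O22Rik* at -2.73. A further 5 genes lay below background on cKO-HFD, so that their levels on WT-HFD give a bound. This was at least 4.12-fold for *Ddit4l*, an inhibitor of mTORC1, 3.56-fold for the uncharacterised *BC023105* and 3.36-fold for *Itm2a*, a membrane protein. It was at least 3.22-fold for the deubiquitinase gene *Usp13* and 3.19-fold for *Rbfox1*, a splicing factor of muscle, heart and brain. *Fabp3*, a fatty acid binding protein of heart, muscle and brown fat, was at 8.75, 7.85, 7.93 and 6.24, and *Cox7a1*, a respiratory subunit of the same tissues, at 10.96, 10.15, 9.78 and 8.26. Both of these were lower on the cKO array of each diet and on the HFD array of each genotype.

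Some lower genes came from the stromal and matrix lists, and whether they are part of the muscle difference was not tested. Of 27 stromal progenitor genes 4 were lower and 0 higher, with a median of -0.09, where 2.11% of all genes were lower. *Cd24a*, a surface glycoprotein of early adipocyte progenitors, was at 6.85 (WT) and 7.55 (cKO) on CT and 8.27 (WT) and 6.61 (cKO) on HFD. *Pi16*, a marker of interstitial progenitors, was at 8.02, 8.61, 9.27 and 7.69. *Dpp4*, a peptidase on the same cells, was at 7.27, 7.60, 7.75 and 6.36. In all 3 genes WT-HFD held the highest level and cKO-HFD the lowest, and cKO-CT lay above WT-CT. *Sfrp1*, a secreted Wnt inhibitor, lay below background on cKO-HFD and was at least 1.57-fold lower there. Other progenitor genes were not called, such as *Pdgfra* (-0.44), *Cd34* (-0.38), *Thy1* (-0.09), *Pdgfrb* (0.39) and *Mest* (0.54). Of the 27 progenitor genes 18 had a log2 ratio below 0 and 9 above 0, where 8843 of 19938 genes in all lay below 0. Of 49 matrix genes 4 were lower, *Ogn* (-1.11), *Timp2* (-0.78), *Thbs2* (-0.77) and *Col14a1* (-0.67), which encode a small proteoglycan, a protease inhibitor, a thrombospondin and a fibril-associated collagen. *Postn*, the matrix protein periostin, was higher, at 9.16, 9.84, 9.84 and 10.50. *Gpx3*, the secreted glutathione peroxidase, was at 10.94, 10.87, 10.79 and 9.42, with cKO-HFD below the other 3 arrays, which lay close together. It was the only one of 38 antioxidant and detoxifying genes to be called.

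Most macrophage genes had ratios below 0 on HFD, and their median was above 0 on CT. Of 48 genes 7 were lower and 0 higher, and 8 of the 48 had a log2 ratio above 0, against 11064 of 19938 genes in all. The median log2 ratio was -0.26 on HFD and 0.40 on CT, where 13 were higher and 0 lower. *Lyz1*, a lysozyme, was at 7.80 (WT) and 8.68 (cKO) on CT and 8.95 (WT) and 8.18 (cKO) on HFD. *Ctss*, the lysosomal protease cathepsin S, was at 7.09, 7.32, 8.13 and 7.32. *Gpnmb*, a glycoprotein of lipid-laden macrophages, was at 6.75, 7.25, 8.24 and 7.53. WT-HFD held the highest level of each of these and WT-CT the lowest, with both cKO arrays between. The folate receptor gene *Folr2* had a log2 ratio of -0.69, *Lyz2* -0.63, the complement gene *C1qc* -0.63 and *Adgre1*, a macrophage surface receptor, -0.60, while the pan-macrophage genes *Cd68* (-0.36) and *Csf1r* (-0.32) did not reach 1.5-fold. *Cxcl13*, a chemokine that attracts B cells, was at 6.39, 6.86, 7.63 and 5.74, 3.70-fold lower on cKO-HFD. It was joined among 45 cytokine, chemokine and acute phase genes by *Il18* (-0.69), below background on all arrays, and *Ccl8* (-0.61), with 0 higher. None of 19 class II and dendritic cell genes, 30 lymphocyte genes or 33 interferon-stimulated genes was called, with medians of -0.10, 0.10 and -0.14. The neutrophil genes *S100a8*, *S100a9* and *Ly6g* were the 3 of 20 granulocyte and mast cell genes called higher (0.61, 0.75 and 0.60), all below background on both HFD arrays.

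Several lipogenic genes were higher on cKO-HFD. Of 24 genes of fatty acid synthesis and desaturation 5 were higher and 0 lower, where 1.04% of all genes were higher. Of the 24, 21 had a log2 ratio above 0, against 11064 of 19938 genes in all. The median log2 ratio was 0.24 on HFD and -0.40 on CT, where 6 were lower and 0 higher. *Fasn*, fatty acid synthase, was at 13.36 (WT) and 13.08 (cKO) on CT and 10.74 (WT) and 11.45 (cKO) on HFD. *Insig1*, the sterol-dependent brake on SREBP processing and itself an SREBP target, was at 10.60, 10.05, 9.04 and 9.86. *Me1*, malic enzyme, which supplies NADPH, was at 11.91, 11.26, 10.11 and 10.82. In each gene both CT arrays lay above both HFD arrays, and cKO was the lower array on CT and the higher on HFD. The mitochondrial citrate carrier gene *Slc25a1* (0.68) and the desaturase gene *Scd2* (0.66) were the other 2 genes called. *Acly* (0.24), *Acaca* (0.11), *Elovl6* (0.44), *Srebf1* (0.04) and *Scd1* (0.00) were not, and *Thrsp*, a lipogenic nuclear protein, had the lowest log2 ratio of the list, -0.44.

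Neighbouring lipid pathways held 2 higher genes each. Among 27 genes of triglyceride synthesis and lipolysis *Agpat2*, which acylates lysophosphatidic acid, was at 12.14 (WT) and 11.68 (cKO) on CT and 10.76 (WT) and 11.54 (cKO) on HFD, and *Lipf*, gastric lipase, was the other gene called. Of 27 cholesterol genes *Insig1* and *Nsdhl* (0.67), a sterol dehydrogenase, were higher and 0 lower, with a median of 0.19, and *Cyp51* (0.58) and *Dhcr7* (0.51) lay below 1.5-fold. *Gys2*, the glycogen synthase of liver and fat, was at 8.63, 8.08, 7.07 and 7.98, in the order of the lipogenic genes. The base of the adipocyte programme showed little difference. None of 23 adipocyte identity genes was called, but 22 of the 23 had a log2 ratio above 0, as most lipogenic genes did. Their ratios ran from -0.44 (*Thrsp*) to 0.57 (*Mrap*, a melanocortin receptor accessory protein), with a median of 0.13. *Adipoq* was at 12.44, 12.66, 12.59 and 12.70, and *Fabp4* at 13.09, 13.09, 13.04 and 13.11. Of 26 brown and beige adipocyte genes *Cox7a1* was lower, and *Elovl3*, a fatty acid elongase of brown fat below background on both HFD arrays, was the 1 higher (0.93). *Ucp1*, the uncoupling protein of brown fat, was at 11.52, 9.96, 7.10 and 6.74, so its ratio was -0.36 on HFD and -1.56 on CT.

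Several genes of the adipokine and expansion list were higher on both diets. Its members were chosen with earlier results of these data known, so the counts describe the list and support nothing. Among 27 adipokine and expansion genes 4 were higher and 0 lower, with a median log2 ratio of 0.21 on HFD and 0.35 on CT. *Lipf* was at 5.65 (WT) and 7.15 (cKO) on CT and 7.84 (WT) and 9.29 (cKO) on HFD. *Oxtr*, the oxytocin receptor, was at 6.33, 7.23, 7.91 and 9.11, and *Slc5a7*, a choline transporter, at 5.18, 6.63, 7.50 and 8.28. The levels of these genes had one order over the arrays, rising from WT-CT through cKO-CT and WT-HFD to cKO-HFD. *Trp53inp2*, an autophagy and differentiation regulator, had a log2 ratio of 0.59, which passed 1.5-fold narrowly and became 0.56 after cyclic loess normalization of the HFD arrays. *Lep*, leptin, was at 10.72, 11.73, 12.06 and 12.54, in the same order but at 0.47 on HFD.

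Most endothelial genes had a ratio above 0 on HFD. Of 29 genes 23 had a log2 ratio above 0, against 11064 of 19938 genes in all. The list median was 0.35 on HFD and 0.31 on CT, and 3 genes were called higher and 1 lower. *Nos3*, endothelial nitric oxide synthase, was at 7.24 (WT) and 7.47 (cKO) on CT and 7.23 (WT) and 7.95 (cKO) on HFD. *Fabp5*, a fatty acid binding protein of capillaries and other cells, was at 9.58, 9.03, 8.77 and 9.52, and was thus lower on cKO-CT. *Sox18*, an endothelial transcription factor, was at 7.54, 8.20, 8.02 and 8.61, and its log2 ratio of 0.60 became 0.57, short of 1.5-fold, after cyclic loess of the HFD arrays. *Cdh5* (0.55), *Esam* (0.54) and *Pecam1* (0.51), junction proteins of the vessel wall, lay just under 1.5-fold. *Cd93*, an endothelial and myeloid surface protein outside the list, was at 8.36 on WT-HFD against 9.18 on cKO-HFD. The 1 gene called lower was *Pdpn* (-0.71), a mark of lymphatic vessels that stromal cells also carry.

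The enzymes that break down NAEs showed no called difference. *Naaa*, the acid amidase that degrades NAEs, was at 8.97 (WT) and 9.17 (cKO) on CT and 9.18 (WT) and 8.97 (cKO) on HFD, and *Faah* lay below background on all 4 arrays with a log2 ratio of -0.11. Other routes to NAEs were represented by *Abhd4* (0.14), *Gde1* (0.25), *Plaat3* (0.25) and *Plaat1* (-0.48), enzymes that process NAE precursors. *Plaat1* lay below background on all 4 arrays. Of the 23 genes *Fabp5*, which also carries NAEs inside cells, was the 1 called. None of 15 genes of 2-AG metabolism and endocannabinoid receptors was called. Of 28 eicosanoid genes *Hpgds* (-0.84), prostaglandin D synthase of immune cells, was lower from a level below background. Of 25 ceramide genes *Sptlc3*, a subunit of serine palmitoyltransferase, was higher, at 4.89, 4.62, 5.09 and 6.36, which is at least 1.92-fold.

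**Figure D3:**
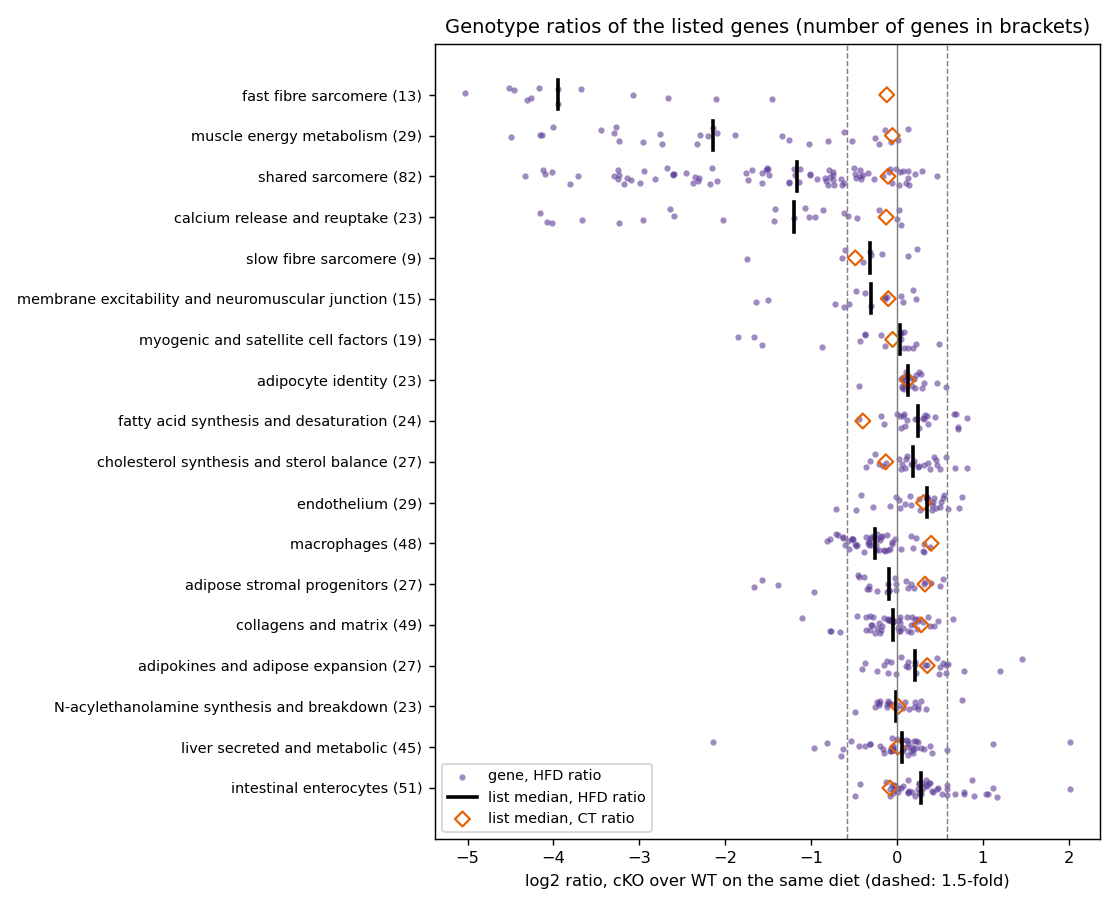
Log2 ratio of cKO-HFD over WT-HFD for each gene of 18 lists (points), with the list median (bar) and the list median of cKO-CT over WT-CT (open diamond), and dashed lines at 1.5-fold. Medians on HFD run from -3.95 for the fast fibre sarcomere to 0.35 for endothelium, and the fatty acid synthesis list (0.24 and -0.40) and the macrophage list (-0.26 and 0.40) have medians of opposite sign on the 2 diets.

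A set of intestinal epithelial genes stood out among the higher genes, and the lists that describe it were written after these values were seen, so the counts describe the set and support nothing. *Apoa4*, an apolipoprotein of small intestinal enterocytes, was at 5.79 (WT) and 5.65 (cKO) on CT and 5.73 (WT) and 7.75 (cKO) on HFD, the 1 gene higher by 4-fold. *Apoa1*, the main protein of high-density lipoprotein, made in gut and liver, was at 6.69, 6.81, 6.59 and 7.71. *Alpi*, intestinal alkaline phosphatase, was at 5.14, 4.95, 4.98 and 6.04, of which the cKO-HFD level alone lay above background, at least 1.53-fold above WT-HFD. In each of these genes cKO-HFD was the high array and the other 3 lay close together. *Guca2b*, the gut peptide uroguanylin, was at 6.24, 6.08, 6.12 and 6.97, *Akp3*, another intestinal phosphatase, at 5.61, 5.41, 5.22 and 6.01, and *Rbp2*, the enterocyte retinol carrier, at 5.57, 4.92, 5.45 and 6.32. In all, 10 of 51 enterocyte genes were higher and 0 lower, with a median of 0.29, and 5 of 25 goblet, Paneth and crypt cell genes were higher and 1 lower (*Tspan8*). Of these *Muc3*, *Clca4b*, *Clca1* and *Tspan8* lay below background on both HFD arrays and *Zg16* on WT-HFD, and *Guca2b* was above it on both. *Zg16*, also a member of the pancreatic acinar list, was at 6.21 on WT-CT and 5.91 on cKO-HFD, at least 1.40-fold higher there than on WT-HFD. With dim genes at their bound, 5 enterocyte genes were higher, and the median of both lists was 0. Above background were 13 (WT) and 14 (cKO) of the 51 enterocyte genes on CT and 12 (WT) and 17 (cKO) on HFD. *Fabp2* (1.17), *Sis* (0.78) and *Clec2h* (0.68) were higher but below background on every array, and *Vil1*, villin of the brush border, lay below background at 4.28, 4.22, 4.28 and 4.40. Where these transcripts came from was not tested.

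Albumin and 4 other genes made chiefly by liver were lower on cKO-HFD. *Alb*, serum albumin, was at 10.18 (WT) and 9.77 (cKO) on CT and 8.54 (WT) and 7.73 (cKO) on HFD, and *Apoa2*, another lipoprotein component, at 6.17, 6.44, 6.56 and 5.91. *Ttr*, the thyroxine carrier, lay below background on every array. Of 45 liver genes *Apoa4* and *Apoa1* were the 2 higher, and 5 were lower, *Alb*, *Apoa2*, *Mup3*, *Ahsg* and *Serpina1c*. The list as a whole did not shift, with 23 of 45 log2 ratios above 0 and a median of 0.06. With dim genes at their bound, 3 were lower and 2 higher. *Apoc3*, at 6.64, 6.37, 6.35 and 6.76, was highest on cKO-HFD. *Mup3* lay below background on cKO-HFD and was at least 1.60-fold lower there. *Ahsg* lay below background on both HFD arrays, and *Serpina1c*, at 5.44 on WT-HFD and 3.29 on cKO-HFD, barely above it on the first and below it on the second, so no fold is given for either. *Serpina1c* belongs to a family of near-identical genes whose probes may cross-react. Pancreatic acinar markers, which were high on WT-CT, were near background on both HFD arrays, with *Cpa1* at 8.62, 5.21, 5.81 and 5.43 and a log2 ratio of -0.38.

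**Figure D4:**
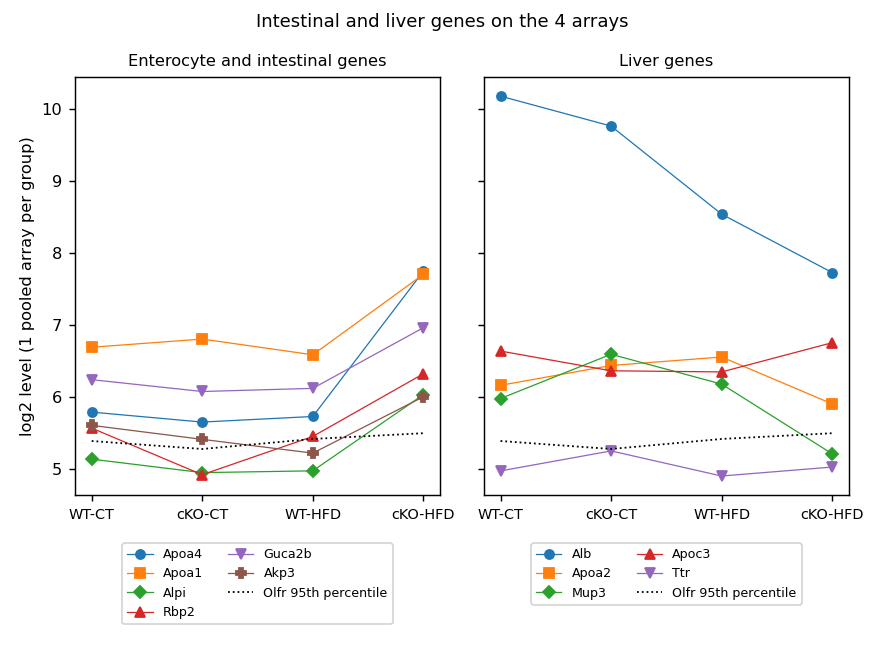
Log2 levels of intestinal epithelial genes (left) and liver genes (right) on the 4 arrays, with lines joining the values of 1 gene and the dotted line at the *Olfr* 95th percentile. The 6 intestinal genes drawn were chosen after their values were seen, and each has its highest level on cKO-HFD, such as *Apoa4* at 7.75. Of all 76 genes of the intestinal lists, 56 had a log2 ratio above 0 on HFD and 20 below 0. Among the liver genes drawn, *Alb* (7.73), *Apoa2* (5.91) and *Mup3* have their lowest level there, and *Apoc3* (6.76) its highest.

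Other higher genes that reached a log2 level of 7 came singly. *Mgst2*, a microsomal glutathione transferase, was at 7.20 (WT) and 6.85 (cKO) on CT and 6.12 (WT) and 7.19 (cKO) on HFD. *Med28*, a Mediator subunit, was at 7.60, 8.66, 7.22 and 8.26, higher by about the same amount on both diets. *Paqr9*, a receptor of the progestin and adipoQ family, had a log2 ratio of 0.83, the mitochondrial outer membrane cytochrome gene *Cyb5b* 0.79, the imprinted zinc finger gene *Zim1* 0.78 and *Gsto1*, a glutathione transferase, 0.78. Some remaining lists held a single lower gene, where 2.11% of all genes were lower, so these calls say little about the lists. They were *Usp2* (-1.18, a deubiquitinase) of the circadian clock and *Chac1* (-0.99, which degrades glutathione) of endoplasmic reticulum stress. *Atp5g1* (-0.71, 1 of 59) of the respiratory chain and *Pdk2* (-0.60, 1 of 30) of the citric acid cycle and pyruvate entry list were further ones. Of 19 circadian clock genes 15 had a log2 ratio below 0 on HFD, against 8843 of 19938 genes in all. The median of the clock genes was -0.19 on HFD and 0.08 on CT, where 16 had a log2 ratio above 0. In 29 keratinocyte and hair genes *Krtdap*, of the upper epidermis, was lower, by at least 1.14-fold against background, and *Lor* (0.64), below background, higher. *Egr3* (0.66) was the 1 higher of 24 immediate early genes. *Penk*, which encodes enkephalin peptides, was at 7.55, 7.59, 7.55 and 6.28, low on cKO-HFD alone. No gene was called among 22 nerve and Schwann cell genes, 23 gland genes, 6 erythrocyte genes, 29 proliferation genes, 27 hypoxia and angiogenic factors, 26 genes of insulin signalling and glucose uptake or 25 of branched-chain amino acid breakdown.

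The genotype ratios on the 2 diets come from separate arrays and were weakly related across genes. Across all 19938 genes they correlated with r of -0.01, and with r of 0.10 over 5362 genes whose mean log2 level was 7 or more, as a description across genes, which are not replicates and were normalized on 4 arrays together. Higher on both diets were 24 genes, 11.6% of those higher on HFD and 7.34% of those higher on CT. Lower on both were 17, 4.05% of those lower on HFD and 5.61% of those lower on CT, 9 of them muscle genes. *Mybpc1*, *Mb*, *Myh1*, *Fabp3* and *Cox7a1* were the lower genes with the largest ratios on both diets, and *Lipf*, *Med28* and *Oxtr* the higher ones. The genotypes went opposite ways in 24 genes. Of these 17 were lower on HFD and higher on CT, 4.05% of those lower on HFD and 5.20% of those higher on CT. The other 7 were the reverse, 3.38% of those higher on HFD and 2.31% of those lower on CT. Over all genes, 1.04% were higher and 2.11% lower on HFD, and 1.64% were higher and 1.52% lower on CT. *Bcl6*, a transcriptional repressor, was at 7.12 (WT) and 7.98 (cKO) on CT and 8.03 (WT) and 7.19 (cKO) on HFD. *Smox*, spermine oxidase, was at 7.25, 7.93, 8.25 and 6.92, and the matrix gene *Ecm1* at 9.68, 10.34, 10.53 and 9.88. In these genes cKO-CT and WT-HFD stood high and WT-CT and cKO-HFD low.

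**Figure D5:**
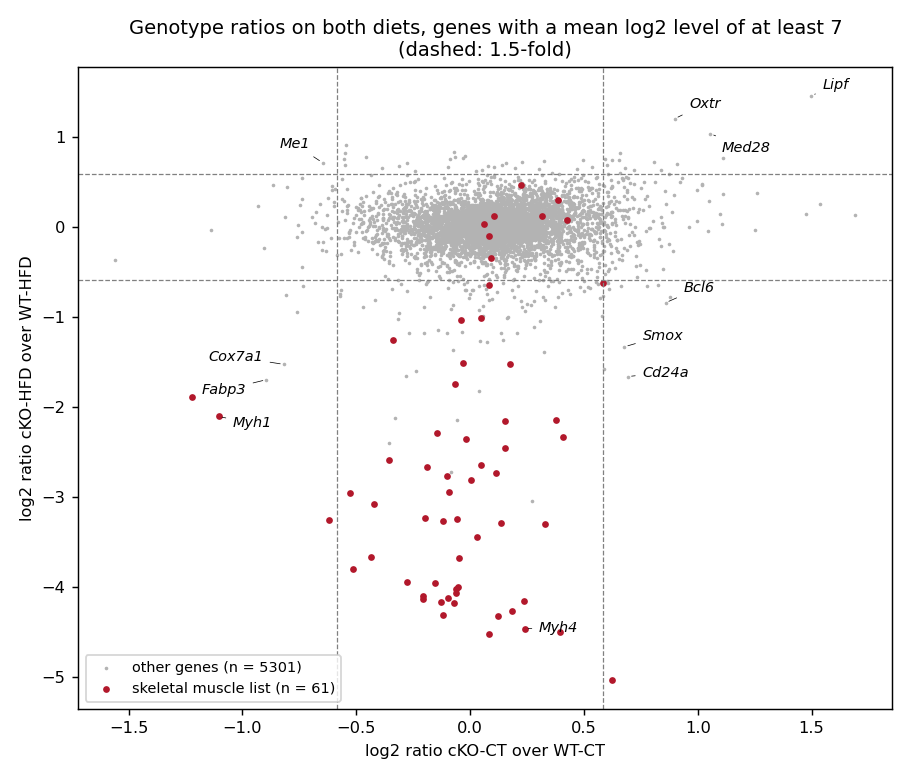
Log2 ratio of cKO-CT over WT-CT (horizontal) and of cKO-HFD over WT-HFD (vertical) for 5362 genes whose mean log2 level was 7 or more, with skeletal muscle genes in red and dashed lines at 1.5-fold. Most red points lie below the lower dashed line and near 0 on the horizontal axis, such as *Myh4* (-4.46 and 0.24 on HFD and CT), while *Lipf*, *Oxtr* and *Med28* lie in the upper right corner.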

How the data were processed

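Subcutaneous fat RNA (100 ng per pool) was hybridized to 4 Affymetrix MoGene arrays, 1 per genotype and diet. What the authors deposited are log2 values of single probe sets from RMA (Affymetrix Expression Console in the processing notes), which corrects background, summarises probes and forces a common distribution on all arrays, so a difference in many genes can shift others. Arrays carry no read depth, and their number limits the precision.

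Of 35556 probe sets, 21789 named 1 gene in the platform annotation, which can be old, 1621 named several and 12146 none. The last 2 kinds were not named. Probe sets with 1 name were averaged for a gene (999 of 19938 genes had more than 1). No detection filter was applied. A gene was called at 1.5-fold. Where 1 side of a called difference lay below the 95th percentile of the *Olfr* genes, the brighter level over that percentile was given as "at least" a fold for named genes, and genes dim on both HFD arrays are said to lie below background. 

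The 44 gene lists hold 1293 symbols, of which 1191 were measured, including 15 found by an older name. Members, lists and rules were chosen with earlier results of these data known, and the 2 intestinal lists were added after the values were seen. The muscle list is the union of 7 role lists (199 symbols, 187 measured) and was meant to leave out genes that many tissues express. Some members, such as *Cryab*, *Hspb6* and *Fhl1* (9.99, 10.07, 10.26 and 10.17), still stood high on all 4 arrays. Named genes are *Napepld*, cell type markers, the 12 lowest muscle genes and the 15 lowest and 15 highest others that reached a log2 level of 7 on a HFD array, the 4 largest ratios of each list, members of counts of 5 or fewer, and up to 8 genes each that went the same or opposite ways on the diets. Other members were named after their values were seen.

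Promoter windows and motif matches are from RefSeq (GRCm38.p6). The steps were tested on simulated data. The alternatives were cyclic loess (limma 3.58.1, span 0.7, 3 iterations), 2 centrings, filters on low levels, a 2-fold size, single probe sets and the removal of muscle genes. The software was R 4.3.3 and Python 3.11.15 (pandas 2.3.3, numpy 2.4.6, matplotlib 3.10.9).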

Additional observations from a re-analysis of the deposited data

Results flagged for a closer look

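These genes passed 1.5-fold in opposite directions on the 2 diets, and the difference between the genotype ratios was not tested, since 1 array per group leaves no spread to test it with. The log2 ratio on HFD minus that on CT was -2.36 for *Cd24a*, a progenitor surface glycoprotein, -2.01 for *Smox*, -1.70 for *Bcl6* and -1.65 for *Lyz1*. It was -1.47 for the inflammatory caspase gene *Casp12*, -1.43 for *Anpep*, an aminopeptidase of myeloid and other cells, and -1.31 for *Ecm1*. All 7 were higher on cKO-CT than on WT-CT and lower on cKO-HFD than on WT-HFD. *Me1* went the other way, with a difference of 1.36.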

How the results depend on the processing

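No count or median of the muscle, macrophage, stromal, endothelial, lipogenic and adipocyte lists changed its direction under an alternative that was run. Taking the brightest probe set of a gene or centring on all genes (a shift of -0.00108) or on genes outside the muscle list above background (-0.00972) moved none of them. Leaving out muscle genes alone moved none of the macrophage, stromal, endothelial, lipogenic and adipocyte results. Among the other results tracked, 1 moved with centring on all genes, 4 with the other centring and 2 without muscle genes. Cyclic loess moved 12 of them over the HFD arrays and 16 over all 4 arrays. Counting probe sets singly and leaving out the intestinal lists were run for the counts over all genes, which they did not move past 1.5 times. After cyclic loess of the HFD arrays the adipocyte median was 0.097 in place of 0.13. Among named genes, loess of the HFD arrays took *Sox18*, *Trp53inp2*, *S100a8* (0.56) and *Ly6g* (0.56) below 1.5-fold and *Ndufs4* (-0.62), a respiratory subunit, past it, and loess of all 4 arrays also took *Lor* (0.58) below. Centring outside the muscle list brought *Cyp51* (0.59), *Krt79* (0.59) and *Ptger3* (0.59) past 1.5-fold and took *Try10* (-0.58) below.

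Filters and the size of a call moved counts by construction. With genes above background on at least 1 HFD array, 115 genes were higher, and the muscle and macrophage medians were -1.43 and -0.31. Without muscle genes as well, an alternative added after seeing the data, 115 were higher and 256 lower. Over genes whose mean level was 7 or more, 53 genes were higher and 169 lower, 54 muscle genes were lower with a median of -2.82, and the macrophage, endothelial and lipogenic medians were -0.37, 0.41 and 0.30. No endothelial gene was then lower (0), and 26 genes went the same way and 14 opposite ways on the diets. At 2-fold, 18 genes were higher and 181 lower, 0 macrophage genes were lower, 0 endothelial genes were higher and 0 lower, 0 lipogenic genes were higher, and 5 genes went the same way and 1 the opposite way.

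No paired analysis was possible because each group has 1 array and the labels carry no replicate numbers, and for the same reason none was left out. Pooling hides the spread between mice, and genotype, animals and dissection cannot be told apart in a single pool. Signal near background limits the slow fibre, satellite cell and intestinal genes.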

Other observations

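Probe sets without a gene name, which entered no gene count, passed 1.5-fold between the HFD arrays more often than named genes. Of 12146 such probe sets 882 (7.26%) were higher on cKO-HFD and 788 (6.49%) lower. Of 1621 probe sets with several names 21 were higher and 18 lower. No gene can be given for either kind here.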
